A study of Mus musculus with 12 samples.

Results

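The genes described here are the 4 class IIa histone deacetylase genes Hdac4, Hdac5, Hdac7 and Hdac9, the kinase genes Camk2d, Camk2g and Prkd1, and the MEF2 transcription factor genes Mef2a, Mef2c and Mef2d. They were chosen by symbol, and all 10 were found among the 54949 features of the count table and passed the filter on low counts, which left 15114 genes to test. The 12 libraries hold RNA from ventricles, freed of the atria, of male wild-type C57BL/6N mice. The study modelled HFpEF, heart failure in which the ejection fraction is preserved, and set it against control mice on normal diet and water. Model mice ate a high-fat diet and drank water with 0.5 g/L L-NAME, which blocks nitric oxide synthases, for 5 weeks from 8 weeks of age. The labels contradict each other for every sample: libraries named HF-1 to HF-6 are titled as control with normal diet, and libraries named con-1 to con-6 are titled as HFpEF with diet and inhibitor. Groups are therefore called HF-named and con-named after the library names, with 6 libraries each. Every fold change divides HF-named by con-named levels, and the labels do not settle which group received the treatment. The design text speaks of 5 samples per group for this assay, and the labels do not say that each library is a mouse of its own, so the p-values reflect the spread among these libraries, which may be technical.

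Class IIa histone deacetylases are repressors with little enzymatic activity of their own. They bind MEF2 factors on muscle gene promoters and keep them silent. In mouse and rat cardiomyocytes, calcium-calmodulin-dependent kinase II (CaMKII) and protein kinase D phosphorylate these deacetylases, which then bind 14-3-3 proteins and leave the nucleus, so that MEF2 can activate its targets. The pathway is known for its part in cardiac hypertrophy. Much of this control acts on protein phosphorylation and location, which RNA levels do not measure.

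Hdac4 was higher in the HF-named libraries, and it was the sole gene of the 10 that passed the test. It rose 1.39-fold, with a 95% interval of 0.32 to 0.63 on the log2 scale. The other 3 deacetylase genes, the 3 kinase genes and the 3 MEF2 genes had fold changes between 0.841 and 1.13 and did not pass. So 1 of 10 genes was called higher and 0 lower at an adjusted p of 0.05, where 13.3% of all genes tested were called, 8.28% higher and 5.05% lower. The share is close to that background and is no result about the group as a whole. The median log2 fold change was 0.07 over the 10 genes and -0.01 over all genes tested, and the median absolute values were 0.15 and 0.13.

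HDAC4 is the class IIa member known in mouse and rat heart cells to bind CaMKII directly. Hdac4 (ENSMUSG00000026313) lies on the minus strand of chromosome 1, from 91928779 to 92195699 in mm10, and spans 266.9 kb. In the RefSeq table on GRCm38.p6, the 250 bases before its start, chr1:92180342-92180591 on the minus strand, hold 4 copies of the GC box GGGCGG, shown in capitals. This RefSeq start lies inside the GENCODE span just given, downstream of its outermost start. The stretch is printed because this gene carries the main difference. The Hdac5 stretch beside it, chr11:102230173-102230422 on the minus strand, holds a match to the MEF2 consensus, in capitals, beginning 20 bases before the start.
Hdac4: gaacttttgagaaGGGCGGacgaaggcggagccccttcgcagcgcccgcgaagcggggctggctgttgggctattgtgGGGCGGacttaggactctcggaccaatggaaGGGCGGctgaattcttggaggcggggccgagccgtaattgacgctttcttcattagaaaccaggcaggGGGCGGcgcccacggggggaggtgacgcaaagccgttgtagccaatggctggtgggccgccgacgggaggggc
Hdac5: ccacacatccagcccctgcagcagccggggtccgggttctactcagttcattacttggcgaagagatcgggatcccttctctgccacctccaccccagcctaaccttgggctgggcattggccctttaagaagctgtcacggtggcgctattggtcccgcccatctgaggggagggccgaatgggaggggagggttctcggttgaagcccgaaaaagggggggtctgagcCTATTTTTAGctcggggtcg

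All members but Camk2g matched the table, giving 9 genes with 15 such stretches, since Hdac7, Hdac9 and Mef2c have several starts. Hdac5 was the sole one with the MEF2 consensus, 1 of 15, against 2.92% of all 32851 stretches of the same length. The consensus reads the same on both strands. The GC box, read on both strands, was in 7 of the 15 and in 32.7% of all. The E-box CACGTG and the cyclic AMP element TGACGTCA, which also read the same on both strands, were in 0 of the 15, against 6.02% and 1.55% of all. The letters TATAAA, on both strands, were in 3 of the 15 and in 12.4% of all. These matches describe letters in a window and are not binding sites shown to be used. The Hdac4 stretch has 65.2% G and C with 23 CpG pairs, and the Hdac5 stretch 60.8% with 12, where the medians of all stretches were 52.4% and 6.

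Total counts per library ran from 14443186 to 22048689. Levels are given as CPM, counts scaled to a common library size with TMM factors, where 3 counts correspond to 0.142 to 0.217 CPM. That floor covers counting error only. Mitochondrial transcripts took 23.9% to 27.2% of the counts in HF-named and 21.0% to 24.0% in con-named libraries. Of 10 cardiomyocyte markers 2 were called higher and 5 lower, and their summed levels overlapped between groups, at 60744 to 67421 CPM in HF-named and 58527 to 66460 CPM in con-named libraries. Of 10 fibroblast, 10 endothelial and 10 macrophage markers, 4, 3 and 3 were called lower and 0 higher, and no marker of these lists was at 0. Over all genes tested, 8.28% were called higher and 5.05% lower. The summed fibroblast level was 1218 to 1489 CPM in HF-named and 1486 to 1907 CPM in con-named libraries. For macrophage markers it was 213 to 282 CPM in HF-named and 253 to 345 CPM in con-named libraries. Of 8 tested mural cell markers 0 were called, though their summed level was 1474 to 1674 CPM in HF-named and 1286 to 1462 CPM in con-named libraries. The part of these marker levels in the results was not tested. Among 5 atrial markers, Myl7, Sln and Bmp10 did not pass the filter on low counts. The summed level of the tested ones, Myl4 and Nppa, was 22.9 to 192 CPM in HF-named and 63.7 to 127 CPM in con-named libraries. It varied widely among HF-named libraries, from 22.9 CPM in HF-5 to 192 CPM in HF-1. In such tissue RNA, fewer cells of a type and less RNA per cell cannot be told apart.

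Hdac4 levels ran from 40.9 to 51.4 CPM with a median of 43.8 CPM in the HF-named libraries, and from 28.0 to 37.8 CPM with a median of 32.1 CPM in the con-named libraries. All 6 HF-named libraries lay above all 6 con-named libraries, with HF-5 and HF-2 highest and con-6 lowest. On the CPM scale it was the sole member whose groups did not overlap, and 5.36% of all genes tested had such groups. The means were 45.3 ± 4.30 CPM and 32.7 ± 3.28 CPM (SD, n = 6 each). On the log2 scale the difference was 0.47 with an SE of 0.07 (edgeR adjusted p = 0.00123). By p it ranked 87 among all genes tested. Its absolute fold change exceeded that of 94.2% of them, while its mean level exceeded that of 76.2%.

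The call on Hdac4 was kept in each fit that left out 1 library, with log2 fold changes from 0.42 to 0.52 and edgeR adjusted p up to 0.0038. In the authors' deposited table the log2 fold change was 0.47, with an adjusted p of 1.21e-06. An unstranded count cannot separate a gene from an overlapping partner on the other strand. Of the exon bases of Hdac4, 22.4% are shared with the long non-coding gene Gm26720 on the opposite strand, which had 0 counts in all 12 libraries. The strand setting of the counts is not given, and reads in shared bases may have been counted for neither gene. These 0 counts therefore do not show that Gm26720 was silent, and its part in the Hdac4 values was not tested.

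**Figure D1:**
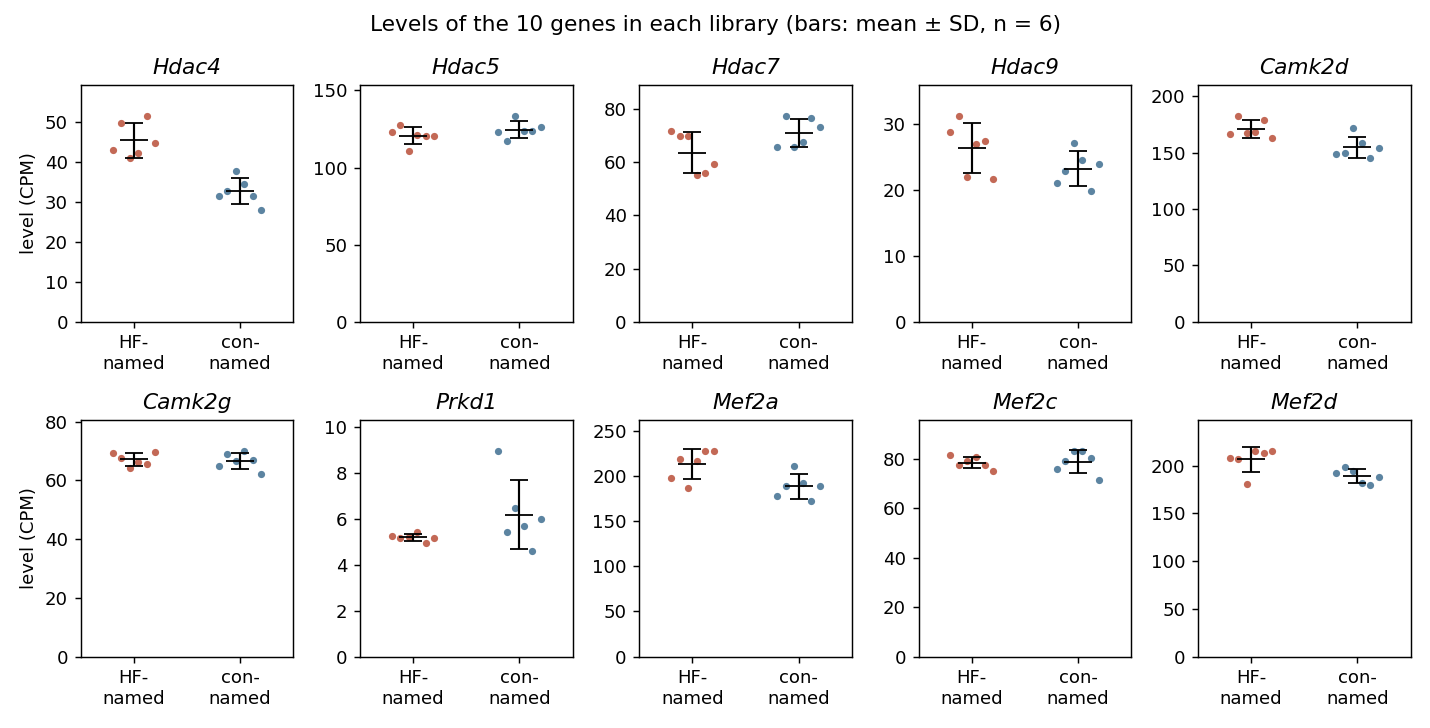
Levels of the 10 genes in CPM on axes from 0, with a point per library, HF-named left of con-named, and bars for mean ± SD (n = 6 each). Hdac4 is the sole panel in which the groups do not overlap; in the Prkd1 panel con-1 stands above the other con-named libraries at 8.95 CPM.

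HDAC5 is known to hold back stress-driven growth in mouse hearts. Hdac5 ran from 110.9 to 127.6 CPM with a median of 120.9 CPM in HF-named and from 117.0 to 133.5 CPM with a median of 123.6 CPM in con-named libraries. The groups overlapped over most of their range, and the fold change was 0.969 (95% interval 0.906 to 1.04, edgeR adjusted p = 0.553). Scaled by library totals alone, Hdac5 had a log2 fold change of -0.16 and passed (edgeR adjusted p = 0.0199), but that scaling moved the median of all genes to -0.13.

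HDAC9 is a class IIa member whose gene also yields forms without the deacetylase domain. Hdac9 ran from 21.6 to 31.2 CPM with a median of 27.2 CPM in HF-named and from 19.9 to 27.2 CPM with a median of 23.4 CPM in con-named libraries. The groups overlapped, with HF-1, HF-2 and HF-5 above every con-named library. Its log2 fold change was 0.18 (SE 0.09, edgeR adjusted p = 0.224), and the 95% interval of the fold ran from 0.986 to 1.30.

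HDAC7 is known for its part in endothelial cells, where it is needed for vessel integrity in mouse embryos. Hdac7 ran from 55.1 to 71.5 CPM with a median of 64.5 CPM in HF-named and from 65.5 to 77.4 CPM with a median of 70.2 CPM in con-named libraries. HF-4, HF-5 and HF-6 lay at 55.1, 56.1 and 59.3 CPM, below every con-named library, whereas HF-1, HF-2 and HF-3 lay at 71.5, 69.7 and 69.8 CPM, inside the con-named range. Hdac7 had a log2 difference of -0.16 (SE 0.07, edgeR adjusted p = 0.161; 95% interval of the fold 0.803 to 0.997).

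Summed levels of the 10 endothelial markers moved alongside. They were 821, 797 and 927 CPM in HF-4, HF-5 and HF-6, and 1065, 953 and 1173 CPM in HF-1, HF-2 and HF-3. The con-named libraries had 1015 to 1375 CPM. HF-4, HF-5 and HF-6 were also the more deeply sequenced HF-named libraries, with 18105305, 19524483 and 22048689 counts. The part of endothelial content and of depth in the Hdac7 values was not tested.

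**Figure D2:**
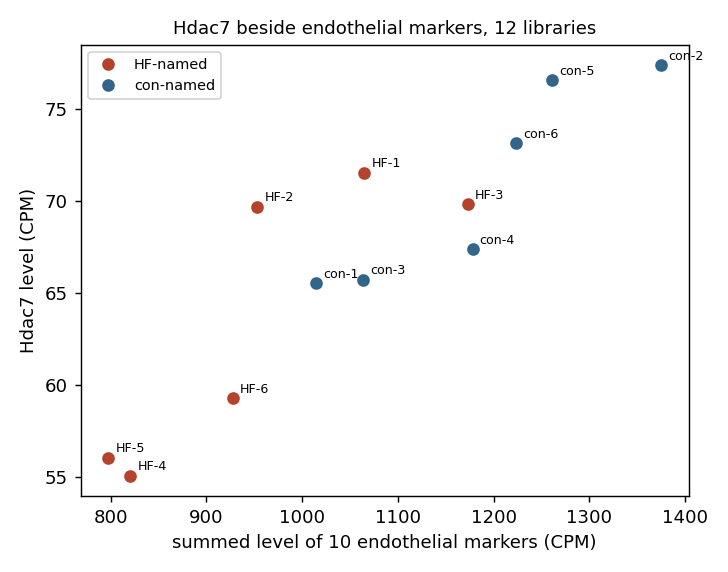
Hdac7 level in CPM against the summed level of 10 endothelial markers in CPM, with a point per library, HF-named in red and con-named in blue. HF-4, HF-5 and HF-6 lie at the lower left, and con-2 at the upper right with 77.4 CPM of Hdac7 and 1375 CPM of markers.

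Camk2d encodes the delta form of CaMKII, the main form in heart muscle. It ran from 163.4 to 182.8 CPM with a median of 167.9 CPM in HF-named and from 145.8 to 172.2 CPM with a median of 151.7 CPM in con-named libraries. The groups overlapped through con-3, which lay above 4 of the 6 HF-named libraries. The log2 fold change was 0.15 (SE 0.05, edgeR adjusted p = 0.0632; 95% interval of the fold 1.03 to 1.19). Camk2d passed when con-3 was left out (edgeR adjusted p = 0.0242) and in DESeq2 (adjusted p = 0.0299). It did not pass in any other fit that left out 1 library. Nor did it pass with a replicate block (edgeR adjusted p = 0.145) or with no filter beyond 1 count (0.178). In the authors' deposited table its adjusted p was 0.0666.

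Camk2g encodes the gamma form of CaMKII, which is also found in the heart. It ran from 64.3 to 69.5 CPM with a median of 67.1 CPM in HF-named and from 62.3 to 70.1 CPM with a median of 66.8 CPM in con-named libraries. The HF-named values lay inside the con-named range. The fold change was 1.01 with a 95% interval of 0.946 to 1.07 (edgeR adjusted p = 0.901).

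Prkd1 encodes protein kinase D1, which phosphorylates class IIa deacetylases downstream of protein kinase C. It was the least abundant member by counts, with 71 to 109 counts in HF-named and 87 to 163 counts in con-named libraries. Its levels ran from 4.94 to 5.41 CPM with a median of 5.18 CPM in HF-named and from 4.58 to 8.95 CPM with a median of 5.81 CPM in con-named libraries. The HF-named libraries lay close together inside the con-named range, whose top was con-1. The log2 fold change was -0.25 (SE 0.13, edgeR adjusted p = 0.228), and the 95% interval of the fold, 0.692 to 1.02, was the widest of the 10 genes. Without con-1 the log2 fold change of Prkd1 was -0.11 (SE 0.10, edgeR adjusted p = 0.515).

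The MEF2 factors are the transcription factors that the deacetylases restrain. Mef2a, the form needed in mice for postnatal cardiac mitochondria and conduction, ran from 187.3 to 228.2 CPM with a median of 217.9 CPM in HF-named libraries, against 172.7 to 211.6 CPM with a median of 188.8 CPM in con-named libraries. HF-2, HF-4, HF-5 and HF-6 lay above every con-named one, and HF-3 and HF-1 lay within their range. The log2 fold change was 0.17 (SE 0.06, edgeR adjusted p = 0.0667; 95% interval of the fold 1.03 to 1.23). Mef2a passed without HF-3 (edgeR adjusted p = 0.0211), without con-3 (edgeR adjusted p = 0.0324) and in DESeq2 (adjusted p = 0.0396). It did not pass in any other fit that left out 1 library. Nor did it pass with a replicate block (edgeR adjusted p = 0.147) or with no filter beyond 1 count (0.153). The authors' deposited table gave it an adjusted p of 0.0906.

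Mef2d, which in mice mediates the cardiac response to pressure overload, ran from 180.7 to 215.7 CPM with a median of 210.6 CPM in HF-named and from 179.2 to 198.6 CPM with a median of 189.8 CPM in con-named libraries. Apart from HF-3, each HF-named library exceeded all con-named ones. The log2 fold change was 0.13 (SE 0.05, edgeR adjusted p = 0.099), and it was 0.17 and passed without HF-3 (edgeR adjusted p = 0.0169). Under library totals the log2 fold changes of Camk2d, Mef2a and Mef2d were 0.03, 0.06 and 0.01, and those of Hdac7 and Hdac9 were -0.27 and 0.06.

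Mef2c, the form essential for heart formation in the mouse embryo, ran from 75.1 to 81.5 CPM with a median of 78.2 CPM in HF-named and from 71.4 to 83.3 CPM with a median of 79.7 CPM in con-named libraries. Its HF-named values lay inside the con-named range, and the fold change was 0.995 (95% interval 0.930 to 1.06, edgeR adjusted p = 0.936). Two-sided unadjusted p-values were 0.0108 for Mef2a, 0.0203 for Mef2d and 0.874 for Mef2c.

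**Figure D3:**
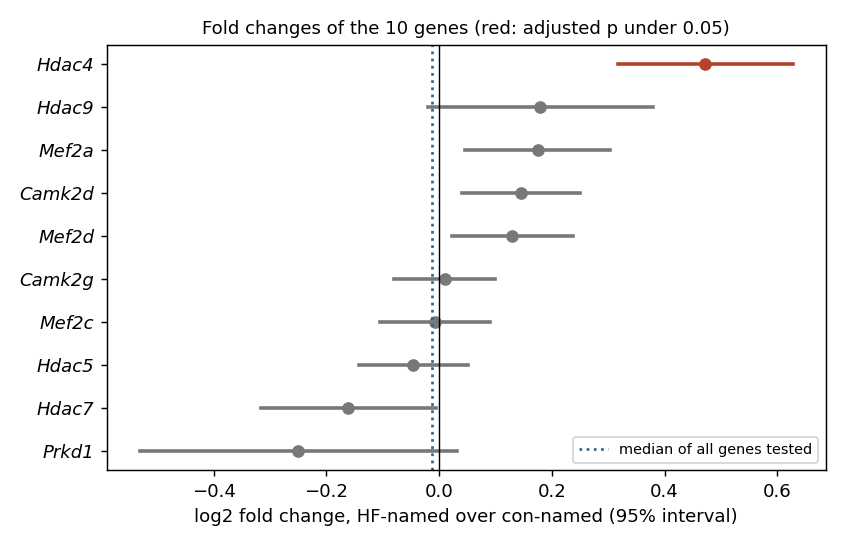
Log2 fold change, HF-named over con-named, with its 95% interval for each of the 10 genes; the dotted line marks the median of all genes tested at -0.01. Hdac4 at 0.47 stands apart from the others, which lie between -0.25 and 0.18.

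A ratio of 2 genes in the same library does not depend on how libraries are scaled. The 10 pairs within the deacetylase, CaMKII and MEF2 families were therefore compared as log2 ratios of counts, with exact two-sided permutation tests of the difference between groups, adjusted over the 10 pairs. The 3 ratios that hold Hdac4 on top were higher in the HF-named libraries, and the other 7 did not pass. The smallest p this design allows is 0.00216. A ratio does not remove effects tied to gene length. Exon bases were 15813 for Hdac4, 14665 for Hdac9, 8780 for Hdac5 and 6755 for Hdac7. Mef2c, with a fold change of 0.995, had 15715. The part of gene length in these ratios was not tested.

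Hdac4 over Hdac5 had log2 ratios of -1.53 to -1.23 in HF-named and -2.18 to -1.82 in con-named libraries, a difference of 0.52 (exact permutation p = 0.00216, adjusted p = 0.0108). Hdac4 over Hdac7 had log2 ratios of -0.77 to -0.12 in HF-named and -1.38 to -0.80 in con-named libraries, a difference of 0.64 (exact permutation p = 0.00216, adjusted p = 0.0108). The groups did not overlap for either ratio. Hdac4 over Hdac9 had log2 ratios of 0.58 to 1.05 in HF-named and 0.23 to 0.66 in con-named libraries, a difference of 0.30 (exact permutation p = 0.0108, adjusted p = 0.0361). For this ratio 4 of the 6 HF-named libraries exceeded all con-named ones, and the call was lost in 6 of the 12 comparisons without 1 library, those without HF-2, HF-5, con-1, con-2, con-4 or con-6 (exact permutation adjusted p up to 0.0866).

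The ratio of Camk2d to Camk2g differed by 0.14 on the log2 scale, with 1.35 ± 0.09 in HF-named and 1.21 ± 0.10 in con-named libraries (SD, n = 6 each; exact permutation adjusted p = 0.0618). The ratio of Mef2a to Mef2c differed by 0.18, with 1.44 ± 0.15 in HF-named and 1.26 ± 0.11 in con-named libraries (SD, n = 6 each; exact permutation adjusted p = 0.0618). Neither passed over all libraries. Camk2d over Camk2g passed without con-3 (exact permutation adjusted p = 0.0469), and Mef2a over Mef2c passed without HF-3 (exact permutation adjusted p = 0.0253). Hdac5 over Hdac9 and Hdac7 over Hdac9 differed by -0.22 and -0.34 and did not pass over all libraries (exact permutation adjusted p = 0.0618 each). Hdac5 over Hdac9 passed without HF-3, HF-6 or con-3, and Hdac7 over Hdac9 without HF-3 or con-3 (exact permutation adjusted p up to 0.0469 for both). The ratio of Mef2a to Mef2d was nearly level, at 0.04 ± 0.06 in HF-named and -0.00 ± 0.09 in con-named libraries (SD, n = 6 each; exact permutation adjusted p = 0.34).

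**Figure D4:**
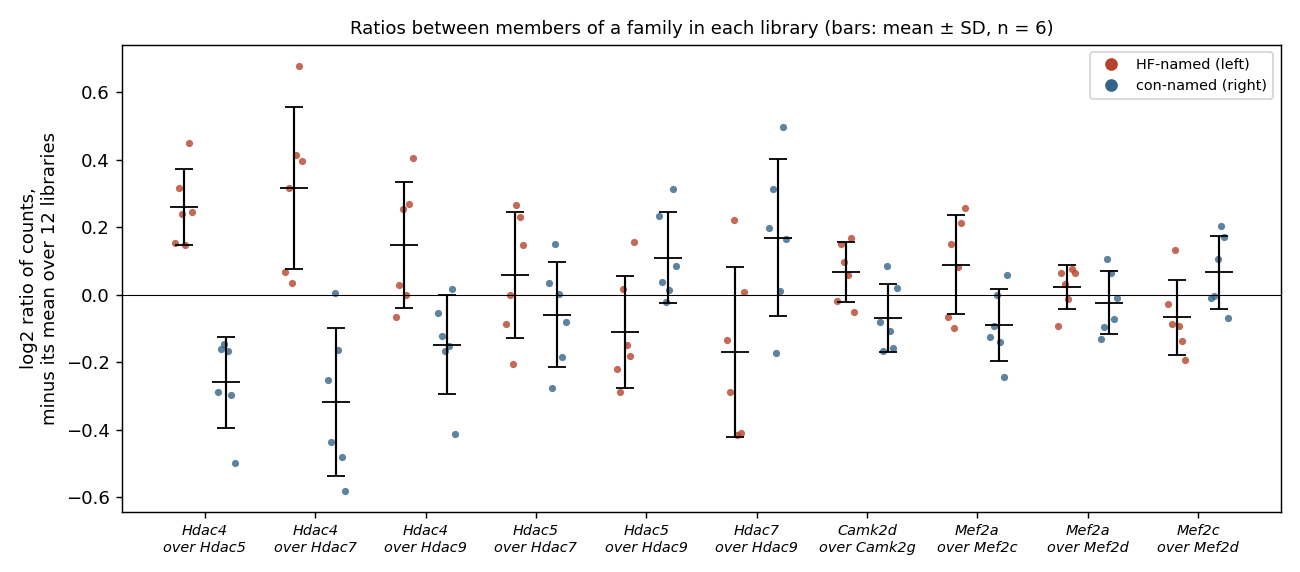
Log2 ratios of counts for the 10 pairs within a family, each minus its mean over the 12 libraries, with a point per library, HF-named left of con-named, and bars for mean ± SD (n = 6 each). The ratios of Hdac4 over Hdac5 and over Hdac7 separate the groups fully.

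Levels of different genes can be compared only per length. The deposited FPKM divides counts by the exon bases of all transcripts of a gene and by the library total. On that scale Mef2d was the most abundant, at 33.1 ± 1.51 FPKM in HF-named and 32.8 ± 1.71 FPKM in con-named libraries (SD, n = 6 each). Hdac5 and Mef2a followed, with 13.2 ± 0.621 and 13.9 ± 0.668 FPKM in HF-named and 14.7 ± 0.590 and 13.3 ± 0.923 FPKM in con-named libraries (SD, n = 6 each). On this scale, which divides by library totals, the Hdac5 groups did not overlap. Levels were 12.38 to 13.95 FPKM in HF-named and 14.01 to 15.56 FPKM in con-named libraries. Scaling by library totals, however, made most called genes lower in the edgeR fit, 2582 of 3065. The share of genes with such a gap on this scale was not counted, so the gap cannot be read as particular to Hdac5. Hdac5 lay above Mef2a in 7 of the 12 libraries, so their order is not fixed.

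Camk2g and Hdac7 came next, with 10.1 ± 0.524 and 9.07 ± 1.39 FPKM in HF-named and 10.8 ± 0.719 and 10.9 ± 1.2 FPKM in con-named libraries (SD, n = 6 each). Camk2d and Mef2c followed, with 7.30 ± 0.317 and 4.80 ± 0.282 FPKM in HF-named and 7.15 ± 0.399 and 5.22 ± 0.394 FPKM in con-named libraries (SD, n = 6 each). Camk2g lay above Hdac7 in 8 of the 12 libraries. Hdac4 followed at 2.74 ± 0.192 FPKM in HF-named and 2.15 ± 0.224 FPKM in con-named libraries (SD, n = 6 each). Hdac9 had 1.72 ± 0.241 and 1.64 ± 0.169 FPKM, and Prkd1 1.36 ± 0.0799 and 1.75 ± 0.373 FPKM, in HF-named and con-named libraries (SD, n = 6 each), with Hdac9 above Prkd1 in 10 of the 12.

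Exon bases behind the FPKM differ widely, from 3653 for Prkd1 to 22493 for Camk2d. When the longest protein-coding transcript in GENCODE M21 was used as length, 5524 bases for Camk2d, Camk2d moved to the third place, after Mef2d and Mef2a. With that length the lead of Mef2d over Mef2a was gone. Their means were 36.6 and 36.8 FPKM in HF-named and 36.3 and 35.4 FPKM in con-named libraries. Hdac5 then lay below Camk2d, with means of 23.9 FPKM in HF-named and 26.7 FPKM in con-named libraries. Hdac4, Hdac9 and Prkd1 stayed last in both orders. Within the class IIa family, Hdac4 made up 10.3 ± 0.958% of the summed FPKM in HF-named and 7.29 ± 0.698% in con-named libraries (SD, n = 6 each). Its shares ran from 9.26% to 12.0% in HF-named and from 6.18% to 8.19% in con-named libraries and did not overlap. Hdac5 held the largest share, 49.5 ± 2.16% in HF-named and 50.1 ± 1.91% in con-named libraries (SD, n = 6 each).

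Genes whose levels followed Hdac4 most closely over the 12 libraries were searched among 12943 named genes. The highest were Trak1, which encodes an adaptor of mitochondrial transport (Pearson's r = 0.99, Spearman's rho = 0.99), Rptor, which encodes the raptor subunit of mTOR complex 1 (0.97 and 0.99), Ankrd33b, an ankyrin repeat gene (0.97 and 0.96), the kinase gene Dyrk2 (0.97 and 0.97) and the zinc finger gene Casz1 (0.97 and 0.96). Since the groups do not overlap for Hdac4, r within each group is the fairer value. For Trak1 it was 0.94 over the 6 HF-named and 0.96 over the 6 con-named libraries, and for Rptor 0.97 and 0.88. In the same order it was 0.93 and 0.81 for Ankrd33b, 0.98 and 0.86 for Dyrk2, and 0.95 and 0.87 for Casz1. Without con-6 and HF-5, the libraries farthest from the median of Hdac4, r was 0.98 for Trak1 and between 0.94 and 0.97 for the other 4. These are the extremes of a large search in libraries that share depth and scaling, given as a description. Trak1 itself was at 379 ± 17.5 CPM in HF-named and 323 ± 19.6 CPM in con-named libraries (SD, n = 6 each; edgeR log2 change 0.23, adjusted p = 0.00933).

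The other genes of the pathway were taken from 7 lists, whose counts stand beside the 8.28% of all genes called higher and 5.05% called lower. Of 7 other histone deacetylases, 0 passed the test, and the one of smallest p was Hdac1, with a log2 fold change of -0.11 (edgeR adjusted p = 0.18). Hdac1 passed under library totals alone (edgeR adjusted p = 0.0243). Among 18 other kinases, 3 rose and 2 fell. Grk5, a receptor kinase that also phosphorylates HDAC5 in the nucleus, was at 28.3 ± 4.76 CPM in HF-named and 19.2 ± 3.94 CPM in con-named libraries (SD, n = 6 each; edgeR log2 change 0.55, adjusted p = 0.0121). Prkaa2, a catalytic subunit of the energy sensor AMPK, rose by 0.37 and the salt-inducible kinase gene Sik2 by 0.48 on the log2 scale. Camkk2, a kinase upstream of AMPK and other CaM kinases, fell by 0.35 and Camk1 fell by 0.16 on the log2 scale. Sik2 no longer passed in 8 of the 12 leave-one-out fits, namely without HF-2, HF-4, HF-5, HF-6, con-1, con-2, con-5 or con-6 (edgeR adjusted p up to 0.0984), and under library totals (0.0821). Camk1 was lost without HF-1 (edgeR adjusted p = 0.0521), and with no filter beyond 1 count both Camk1 and Sik2 were lost (0.0627 and 0.0539). Of the Sik2 exon bases 15.0% overlap Ppp2r1b on the opposite strand. The other CaMKII forms, Camk2a and Camk2b, had 59.9 ± 6.12 and 11.2 ± 1.18 CPM in HF-named and 57.8 ± 3.44 and 11.7 ± 1.96 CPM in con-named libraries (SD, n = 6 each; edgeR adjusted p = 0.659 and 0.743).

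Of 12 tested genes of calmodulin, CaMKII inhibitors and phosphatases, 1 rose and 1 fell. Camk2n1, which encodes an inhibitor protein of CaMKII, was at 21.0 ± 2.83 CPM in HF-named and 27.9 ± 3.69 CPM in con-named libraries (SD, n = 6 each; edgeR log2 change -0.40, adjusted p = 0.0123). Ppp1cb, a catalytic subunit of protein phosphatase 1, rose by 0.23 on the log2 scale (edgeR adjusted p = 0.0187), a call lost under library totals (0.0782), and 17.5% of its exon bases overlap Gm43312 on the same strand. Of 8 genes of 14-3-3 proteins and nuclear export, 1 rose: Ywhag, which encodes the gamma form, was at 242 ± 23.7 CPM in HF-named and 196 ± 17.9 CPM in con-named libraries (SD, n = 6 each; edgeR log2 change 0.31, adjusted p = 0.0119).

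Among 15 tested corepressors, coactivators and partners of MEF2, 6 rose and 0 fell, where 8.28% of all genes tested rose and 5.05% fell, and the list median was 0.06. The acetyltransferase gene Kat2b had a log2 fold change of 0.29, with all HF-named libraries above all con-named ones (edgeR adjusted p = 0.00601). The related coactivator genes Ep300 and Crebbp rose by 0.27 and 0.21 on the log2 scale, and Myocd, the gene of the coactivator myocardin, by 0.37. Crebbp also had all HF-named libraries above all con-named ones, as did Ywhag, Xirp2 and Ttn of the other lists, and Camkk2 had them below. Of all genes tested, 5.36% had groups that did not overlap in either direction. Of the corepressor complex that HDAC4 recruits, Ncor1 rose by 0.21 and Tbl1xr1 by 0.26 on the log2 scale. Several of these calls were close to the threshold. Myocd was lost without HF-1, HF-2, HF-5, con-1, con-5 or con-6 (edgeR adjusted p up to 0.07), Ncor1 without HF-4, HF-5, con-5 or con-6 (up to 0.0534) and with no filter beyond 1 count (0.0502), and Ep300 without HF-5 or con-5 (up to 0.0509). Under library totals 5 of the 6 were lost, all but Kat2b, with edgeR adjusted p of 0.0722 for Tbl1xr1, 0.0892 for Myocd, 0.125 for Ep300, 0.198 for Ncor1 and 0.245 for Crebbp.

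Among 18 known MEF2 target genes of muscle and heart, 3 rose and 2 fell, where 13.3% of all genes tested were called, and the list median was 0.13. Xirp2, an actin-binding repeat gene known as a MEF2A target in mice, had the largest change of these 5, at 777 ± 127 CPM in HF-named and 485 ± 40.7 CPM in con-named libraries (SD, n = 6 each; edgeR log2 change 0.68, adjusted p = 0.000668). The M-band gene Myom1 rose by 0.28 and the coactivator gene Ppargc1a by 0.35 on the log2 scale. Srpk3, a muscle kinase gene, fell by 0.23 and the muscle creatine kinase gene Ckm fell by 0.17 on the log2 scale. Both are known to be activated by MEF2, so the 5 calls went in both directions. Ckm no longer passed in 10 of the 12 leave-one-out fits, the exceptions being those without HF-2 or con-2 (edgeR adjusted p up to 0.0996), and with no filter beyond 1 count (0.135). Ppargc1a was lost without HF-2, HF-4, HF-5, con-2, con-5 or con-6 (edgeR adjusted p up to 0.063). Of the Ckm exon bases 15.5% overlap A930016O22Rik on the opposite strand.

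Of 7 CaMKII substrates of the cardiomyocyte, 3 rose and 0 fell, where 8.28% of all genes tested rose and 5.05% fell, and the list median was 0.14. They were the titin gene Ttn, with a log2 fold change of 0.40 (edgeR adjusted p = 0.00179), the ryanodine receptor gene Ryr2, with 0.46 (edgeR adjusted p = 0.00878), and Cacna1c, the pore subunit of the L-type calcium channel, with 0.30 (edgeR adjusted p = 0.0234). Cacna1c was lost without HF-2 or HF-5 (edgeR adjusted p up to 0.0581) and under library totals (0.0645).

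**Figure D5:**
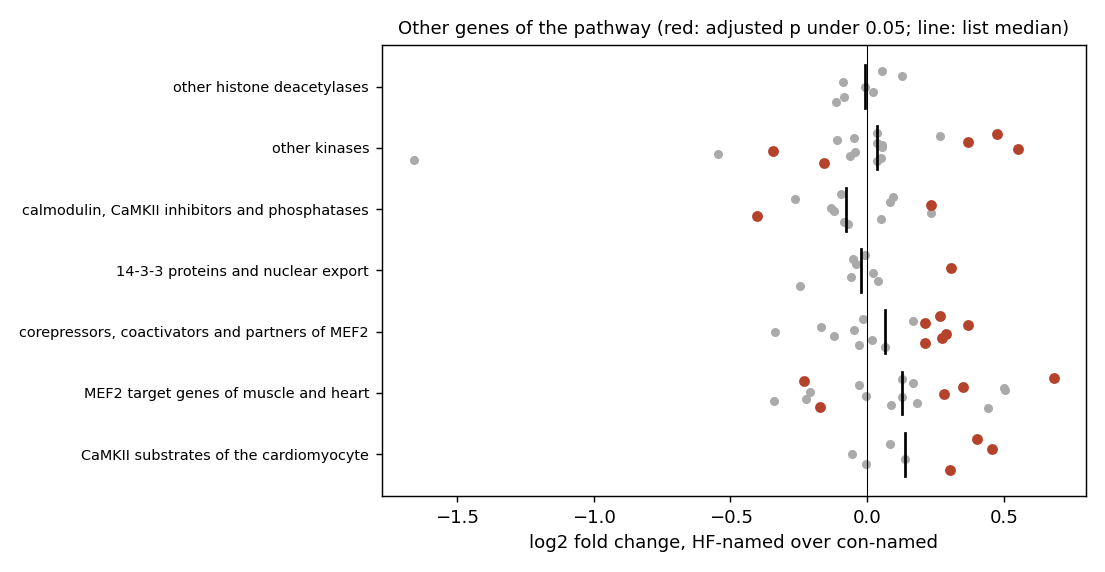
Log2 fold change, HF-named over con-named, of each tested gene in 7 lists of the pathway, with called genes in red and a vertical line at the list median. Called genes lie on both sides of 0 in the kinase, calmodulin and MEF2 target lists, and Xirp2 is the called gene farthest to the right at 0.68.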

How the data were processed

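Per the labels, the 12 libraries were made from poly-A RNA. The authors deposited raw read counts per gene. The submitters' processing notes name HTSeq 0.9.1, HISAT2 2.0.5, cutadapt 1.15 and mm10. The sources used here do not give the annotation release or strand setting. The deposited FPKM values divide each count by 1 length per gene and by the library total, checked on the values. The authors' deposited table holds a scaled count signal per group, log2 fold changes and p-values.

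Libraries were assigned to groups by the library name in the description. Genes were filtered with filterByExpr, scaled by TMM and tested with edgeR 4.0.16 (quasi-likelihood, two-sided, R 4.3.3), with Benjamini-Hochberg adjustment over 15114 genes at 0.05. SE is the absolute log2 fold change over the square root of F. Alternatives were RLE or total scaling, other filters, a replicate block, each library left out, limma-voom 3.58.1, DESeq2 1.42.0 and, added after seeing the data, a fit without mitochondrial transcripts and another gene length. All 30 pairs of libraries within groups differed beyond sampling noise (chi-square per degree of freedom 4.35 to 18.1). The test was checked on simulated data. Coordinates are from GENCODE M21 (GRCm38). Named genes were the members, every called gene of a list (6 or fewer each) or else the gene of smallest p, and the 5 genes most like Hdac4; Camk2a, Camk2b and Hdac5's stretch were added after seeing values. Members and lists were chosen with earlier results of these data known.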

Additional observations from a re-analysis of the deposited data

Results flagged for a closer look

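For 2 of 90 sets of 6 library values examined, 1 library lay far from the rest of its group. Chance gives about 1 such set in 20. Mef2d in HF-3 was at 180.7 CPM, while the other 5 HF-named libraries lay between 206.4 and 215.7 CPM. Tbl1xr1 in con-1 was at 40.5 CPM, while the other 5 con-named libraries lay between 33.8 and 36.1 CPM.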

How the results depend on the processing

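The call and direction of Hdac4 held under every alternative run, with log2 fold changes from 0.35 under library totals to 0.52 without con-3. Of 15114 genes tested 2016 were called (62.1% higher); library totals gave 3065 (15.8% higher) and the replicate block 1131. Leaving out 1 library gave 1355 to 2550. The members called were 2 under library totals, 3 in DESeq2 and 1 to 3 without 1 library, against 1. Of the 10 ratios 3 passed; 0 did with the replicate block, where the smallest sign-flip p is 0.0312 and the smallest adjusted p was 0.156, and 2 to 7 did without 1 library (6 without con-3). Library numbers showed no sign of pairing the samples: same-numbered libraries correlated between -0.16 and 0.09, and 1 of 6 HF-named libraries matched its own number best. Such a check cannot exclude pairing, so the replicate block remains a limit on these calls. With the replicate block 8 named genes no longer passed in edgeR, with adjusted p of 0.0537 for Myom1, 0.0547 for Crebbp, 0.0571 for Sik2, 0.0631 for Ppp1cb, 0.0684 for Ppargc1a, 0.07 for Camk1, 0.074 for Cacna1c and 0.134 for Ckm. The log2 fold change of Camk2g turned to -0.11 under library totals, -0.000798 with the filter of 1 CPM in 6 libraries, and ran from -0.0169 to 0.0255 without 1 library. That of Mef2c ran from -0.0428 to 0.00915 without 1 library. The cause of these changes was not tested. Prkd1 had the fewest counts of the members, 71 to 163 a library.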
